A study of Mus musculus with 3 samples.

Results

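The cytosolic ribosomal protein genes are described here in skeletal muscle of mice from a line with a missense change in Rbm20. Genes were chosen by name, as Rpl, Rps or Rplp with a number and at most 1 further letter, with Rpsa added and pseudogene entries left out. The rule found 56 of the 52071 genes that the table holds outside merged groups, with 865 of its 469293 exonic parts. Exonic parts are the pieces left when exons are divided at every annotated boundary. Another 27 of the 83 genes with such names in GENCODE M21 share a merged group with an overlapping gene, often a small nucleolar RNA inside an intron, and their levels are given apart. Of the 56 genes, 53 reached 5 RPM in at least 1 library, where RPM counts the inclusion reads of a gene for every 1000000 such reads in the library. The testis paralog Rpl10l and the copies Rpl32l and Rpl39l stayed under that level in all 3 libraries. Rps4l, Rpl6l and Rpl32l are annotated as pseudogenes in M21, which leaves 51 measured protein-coding genes.

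Each ribosome holds a large and a small subunit, and most of the proteins in each are present in 1 copy per ribosome. Their genes are transcribed at high and similar levels in most cells, and the messages begin with a run of pyrimidines, the 5′ TOP, through which mTORC1 signalling and LARP1 control their translation. Striated muscle is known for a paralog of its own, Rpl3l, which takes the place of Rpl3 in ribosomes of heart and skeletal muscle.

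There were 3 libraries, 1 from each genotype at 12 weeks of age: wild type, heterozygous and homozygous for Rbm20 I538T. The change was put in with CRISPR/Cas and corresponds to human I536T, per the labels. RBM20 is a splicing factor of heart and skeletal muscle whose best known target is titin, and no cell-type-specific driver is named for the allele. The labels do not name the muscle, nor do they say whether a library holds RNA of 1 animal or several.

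With 1 library per genotype there is no replicate check, so no test compares genotypes and every difference below is between libraries. Inclusion reads numbered 239837797, 265358773 and 215923385, and these and all trios of values below are in the order wild type, heterozygous, homozygous. Fast fibre markers summed to 179367, 164526 and 213297 RPM, among the most abundant messages of muscle, while slow fibre markers summed to 1895, 704 and 80.5 RPM. Fewer cells of a type and less RNA per cell cannot be told apart in bulk tissue.

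The start sites of these genes were read for the pyrimidine run, and a gene with several listed starts was counted once if any of them held it. Of the 56 genes, 43 matched the RefSeq table of start sites for GRCm38.p6. A run of at least 8 bases that are C or T lay within 15 bases of a listed start in 19 of them (44.2%), against 3760 of 27025 genes in the whole table (13.9%). The run covered the start base itself in 14 genes (32.6%), against 4.59% of the table. The letters CCGGAAG, searched on both strands from 250 bases before the start to 50 after it, were present in 18 genes (41.9%) against 9.93%. A match describes these letters only. The windows below run from 15 bases before the start to 15 bases from it, with any such run in capitals. They are shown for 2 genes with long runs, Rpl35 and Rps18, for 2 genes among the lowest in homozygous muscle, Rpl38 and Rps21, and for the muscle paralog Rpl3l. They lie at chr2:39005117-39005146 on the minus strand, chr17:33955651-33955680 on the minus strand, chr11:114668565-114668594, chr2:180257364-180257393 and chr17:24727811-24727840, the last 3 on the plus strand.
Rpl35: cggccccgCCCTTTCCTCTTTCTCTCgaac
Rps18: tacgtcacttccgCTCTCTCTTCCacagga
Rpl38: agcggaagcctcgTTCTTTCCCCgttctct
Rps21: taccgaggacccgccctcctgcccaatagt
Rpl3l: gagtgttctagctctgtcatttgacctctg
The runs were 18 bases in Rpl35, 11 in Rps18 and 10 in Rpl38, while the windows of Rps21 and Rpl3l held none of 8 or more.

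Ribosomal protein genes were highly expressed in this muscle. They took 1.63%, 1.66% and 1.42% of all inclusion reads, which came to 3900468, 4395265 and 3060153 reads. Compared per base, as the 90th percentile over a gene's parts per 1000000 inclusion reads, the 51 protein-coding members had a median of 0.225, 0.224 and 0.206, against 0.00471, 0.00535 and 0.00414 for all 9432 measured genes. In wild type the highest was Rpl37a, a small zinc-binding protein of the large subunit, at 0.726 per base. Rps14 followed at 0.713, Rps29 at 0.655, Rpl41 at 0.609 and Rpl36 at 0.489. The lowest of the protein-coding members was Rpl22, at 0.0838 per base, and the highest exceeded the lowest 8.67-fold, 10.6-fold and 8.49-fold in the 3 libraries. The pseudogene copies Rpl6l, at 0.00617 per base, and Rps4l, at 0.0106, stood well under all of them in wild type.

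The subunits overlapped in level. The median per-base level in wild type was 0.213 over 29 large-subunit genes and 0.246 over 22 small-subunit genes, a ratio of 0.864, and the range of the large subunit enclosed that of the small one. Counting every part of a gene in place of its best covered parts moved that ratio to 0.956. Reads from processed pseudogenes bear on all of these values, because ribosomal protein genes have many near-identical copies. Entries named as such copies numbered 312 genes and summed to 576, 612 and 494 RPM, which was 3.54%, 3.69% and 3.49% of the members' reads, and how the authors' counting shared reads among copies is not given. How many reads a single gene gained or lost in this way was not measured, and single-gene values are uncertain for that reason.

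In homozygous against wild-type muscle, the genes differed little and mostly the same way. The median log2 ratio over the 53 measured members was -0.24, against -0.18 over all 9432 measured genes and -0.01 over the 1012 other genes at 100 RPM or more in a library. Of the 53, 47 were lower by any amount, where 64.0% of all measured genes were lower. Since the median of all genes itself lay at -0.18, the members stood -0.06 from it, and 33 of 53 were lower once that median was set to 0. Leaving the 50 highest genes out of the library total gave -0.12, so the sign of the median held under each scaling while its size did not.

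The ratios lay closer together than those of all genes, but about as close as those of other complexes in 1 of the pairs with wild type. The interquartile range over the members was 0.22 on the log2 scale, against 0.73 over all measured genes and 0.49 over other genes at 100 RPM or more. It was 0.33 over both the mitochondrial ribosomal protein and the proteasome subunit genes. In heterozygous against wild-type muscle these 2 sets had 0.26 and 0.25, against 0.27 over the members. None of the 53 was at least 2-fold higher, where 2.05% of all genes were, and 1 was at least 2-fold lower, where 10.1% of all genes were. At 1.5-fold in either direction the count was still 1 of 53, against 30.7% of all genes and 14.7% of other genes at 100 RPM or more. Deep coverage narrows counting error but does not stand in for replicates: the 95% Poisson interval of a member's level spanned 0.387% to 1.47% either side of it over the 51 protein-coding genes and 3 libraries.

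**Figure D1:**
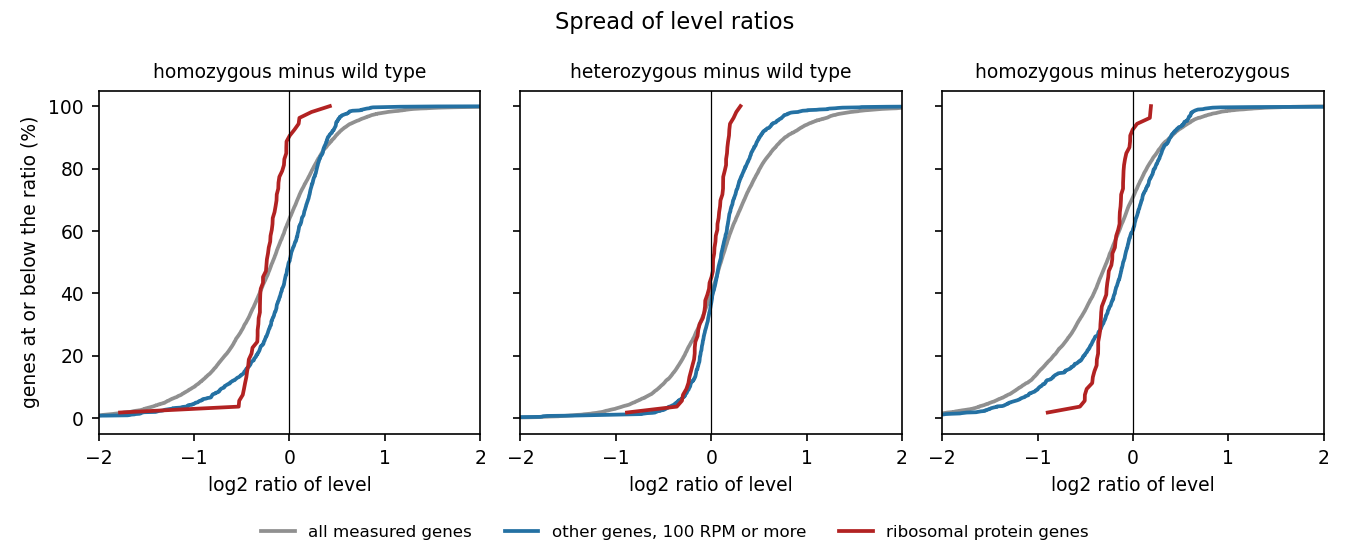
Cumulative share of genes (vertical axis, percent) at or below each log2 ratio of level (horizontal axis) for the 3 pairs of libraries, for all 9432 measured genes, for 1012 other genes at 100 RPM or more and for the 53 measured ribosomal protein genes. The curve of the ribosomal protein genes is the steepest in each panel, with interquartile ranges of 0.22, 0.27 and 0.25.

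The single gene past 2-fold was Rps4l, a processed copy of Rps4x on chromosome 6. It had 13.1 RPM (95% Poisson interval 12.6 to 13.5), 6.63 (6.32 to 6.95) and 3.11 (2.88 to 3.35), so it fell by 1.78 on the log2 scale from wild type to homozygous. Its level was low in every library and lowest in homozygous muscle. Its parent Rps4x, the X-linked gene of a small-subunit protein, had 225, 182 and 160 RPM, a log2 ratio of -0.49 in homozygous against wild type. Per base, Rps4l stood at 0.0527, 0.0327 and 0.0182 of Rps4x, and how many of its reads come from the parent was not tested.

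Among the next lowest members were Rpl38 and Rps21, both with short coding sequences. Rpl38, a large-subunit protein needed for the translation of some Hox messages in mouse embryos, had 191, 167 and 132 RPM, a log2 ratio of -0.53. Its 4 coding parts gave -0.57 to -0.55, so the difference was even along the gene. Rps21, a small protein of the small subunit, had 169.9, 167 and 118 RPM, also a ratio of -0.53, with 6 coding parts between -0.58 and -0.42. Rpl17, part of the wall of the peptide exit tunnel, had 193, 161 and 138 RPM and a ratio of -0.48. In Rpl38, Rpl17 and Rps4x the heterozygous library lay between the others, whereas in Rps21 it was near wild type. None of these 4 reached 1.5-fold.

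A higher level in homozygous muscle was seen in 6 of the 53, where 36.0% of all genes were. Rpl29, a basic protein at the surface of the large subunit, led with 285 RPM (283 to 287), 335 (333 to 337) and 382 (380 to 385), a log2 ratio of 0.42, and all 7 of its coding parts were higher by 0.31 to 0.59. Rpl3l, the muscle paralog, followed with 334 RPM (331 to 336), 345 (343 to 347) and 392 (389 to 394), a ratio of 0.23, with its 11 coding parts between -0.01 and 0.56. In both the level was lowest in wild type and highest in homozygous muscle, although neither passed 1.5-fold. Rpl29 and Rpl3l were the only 2 measured members with that order, where 10.1% of all measured genes had it.
Rps26, a small-subunit protein near the messenger exit, had 169 RPM, 161 and 182, a ratio of 0.10. Rpl10a had 265, 298 and 284 RPM, also 0.10, and Rpl9 had 428, 476 and 443 RPM, a ratio of 0.05. The coding parts of these genes differed in sign, from -0.04 to 0.41 in Rps26, -0.16 to 0.52 in Rpl10a and -0.08 to 0.50 in Rpl9. Rpl15, the sixth, was level at 237, 243 and 238 RPM.

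**Figure D2:**
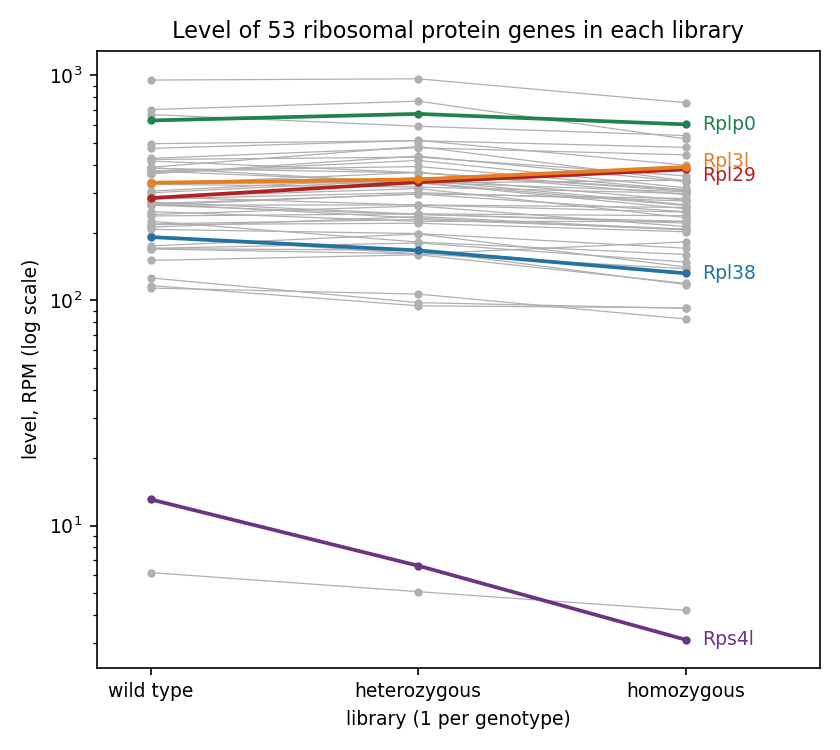
Level in RPM (vertical log axis) of each of the 53 measured ribosomal protein genes in the 3 libraries (horizontal axis), 1 line per gene, with 5 genes named. Rpl29 and Rpl3l lie at 285 and 334 RPM in wild type and at 382 and 392 in homozygous muscle, and Rpl38 at 191 and 132. Rps4l and Rpl6l, the latter without a label, lie far under the others.

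The proteins of the stalk, which recruits translation factors, gave values within the range of the others. Rplp0, which anchors the stalk, had 630 RPM, 674 and 605, a log2 ratio of -0.06 in homozygous against wild type. Rplp1, an acidic stalk protein, had 288, 314 and 233 RPM, a ratio of -0.30, with 3 coding parts between -0.35 and -0.22. Rps27a, made as a fusion of ubiquitin and a small-subunit protein, had 376, 335 and 304 RPM, a ratio of -0.31, with 6 coding parts between -0.35 and -0.27. Rps24 had 423, 433 and 358 RPM, a ratio of -0.24. Both subunits gave like values, with medians of -0.26 over 30 large-subunit genes and -0.22 over 23 small-subunit genes.

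In heterozygous against wild-type muscle, the direction of the members depended on the scaling. The median log2 ratio was 0.02 over the 53 members, against 0.10 over all measured genes, and it turned to -0.08 when the median of all genes was set to 0. Of the 53, 30 were higher, where 60.0% of all genes were, but with that median at 0 instead 37 were lower. None was 2-fold apart in either direction, against 9.12% of all genes, and Rps4l, with a ratio of -0.88, was the 1 gene past 1.5-fold, against 25.3%. The highest was Rps19, whose human counterpart is mutated in Diamond-Blackfan anaemia, with 390, 483 and 340 RPM, a ratio of 0.31 in heterozygous against wild type. It was followed by Rps9 with 365, 438 and 337 RPM (0.26), Rpl29 (0.23), Rps27 with 306, 351 and 279 RPM (0.20) and Rpl18 with 301, 343 and 266 RPM (0.19). After Rps4l the lowest were Rpl39, among the shortest proteins of the ribosome, with 126, 97.8 and 92.3 RPM (-0.36), Rps4x (-0.31), Rpl22 with 116, 94.7 and 92.7 RPM (-0.30) and Rpl17 (-0.26).

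The third pair, homozygous against heterozygous, shares a library with each of the others. The median over the members was -0.22, against -0.28 over all genes, and it turned to 0.06 when the median of all genes was set to 0. Of the 53, 49 were lower, where 70.7% of all genes were, and with that median at 0 the count was 22. None was 2-fold apart, against 16.0% of all genes. Across the 3 libraries, homozygous muscle was the lowest for 46 of 53 members, against 53.5% of all measured genes, and heterozygous muscle was the highest for 28, against 49.9%. These orders rest on scaling by library totals and change with the median set to 0, as the counts of 33, 37 and 22 members lower in the 3 pairs show.

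Genes of other complexes gave higher medians between the same libraries. The 70 measured mitochondrial ribosomal protein genes had a median of 0.08 from wild type to homozygous and 0.11 from wild type to heterozygous muscle. The 35 measured proteasome subunit genes had 0.12 and 0.18. In the first of these pairs 21 of the 70 and 10 of the 35 were lower, against the 47 of 53 above.

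Short coding sequences went with lower ratios among the members. Across the 51 protein-coding genes, whose longest coding sequences in M21 run from 138 to 1221 bases, Pearson's r between log2 length and the log2 ratio of homozygous against wild type was 0.52 and Spearman's rho was 0.51. The 26 genes of 420 bases or less had a median of -0.29, and the 25 longer ones had -0.16. In heterozygous against wild type, which shares the wild-type library, r was 0.34 and rho 0.36, with medians of -0.06 and 0.10. In homozygous against heterozygous r was 0.26 and rho 0.19. Over 665 other genes at 100 RPM or more with coding sequences of the same lengths, r was 0.14 and rho 0.30 in homozygous against wild type, with medians of -0.14 for 180 short and 0.07 for 485 longer genes. Over all 8618 other measured genes with a coding length, r was -0.08 and rho -0.08, with medians of -0.17 for 567 short and -0.17 for 8051 longer genes, so the relation was not seen across the whole table. Genes are not independent replicates and all points share the same libraries, so these are descriptions. Coverage along the genes differed as well: the log2 of reads per base in the first over the last coding part had medians of -0.54, -0.32 and -0.33 over 50 genes, and its part in the relation was not tested.

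**Figure D3:**
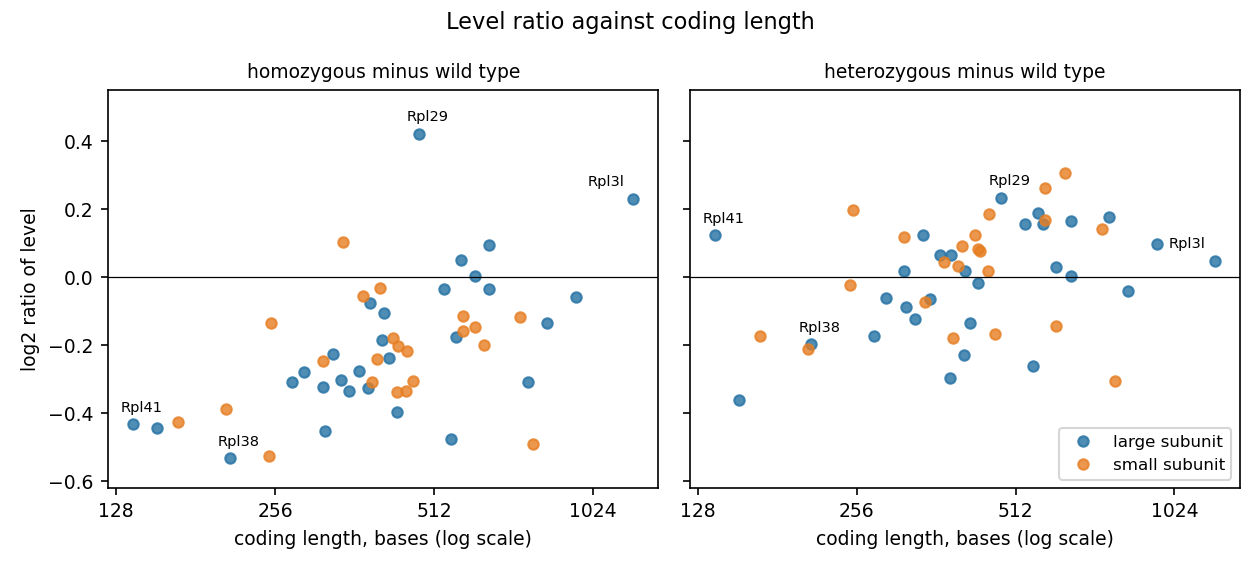
Log2 ratio of level (vertical axis) against the length of the coding sequence in bases (horizontal log axis) for 51 protein-coding ribosomal protein genes, by subunit, in homozygous minus wild type and heterozygous minus wild type. In the first panel the shortest genes lie near the bottom, Rpl41 at -0.43 and Rpl38 at -0.53, and Rpl29 at 0.42 stands above genes of its length.

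Paralog pairs were compared per base, since their lengths differ. The first is Rpl3l and Rpl3. Rpl3 shares a merged group with a small RNA gene and so lies outside the rule, but 26 of that group's 27 parts belong to Rpl3 alone. From these parts, Rpl3 had 117, 159.6 and 64.8 RPM. The log2 ratio was -0.84 in homozygous against wild type, short of 2-fold. In homozygous against heterozygous it was -1.29, past 2-fold, where 14.5% of all genes were at least 2-fold lower.
Every one of its 12 coding parts was lower in homozygous muscle, by a log2 ratio of -1.31 to -0.43 against wild type. The 4 parts at the end with the lowest coordinates on chromosome 15 gave -1.31 to -1.14, and the other 8 gave -0.94 to -0.43. Rpl3l was higher than in wild type in 10 of its 11 coding parts. The ratio of Rpl3l to Rpl3 per base was 2.66, 2.30 and 6.85.

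**Figure D4:**
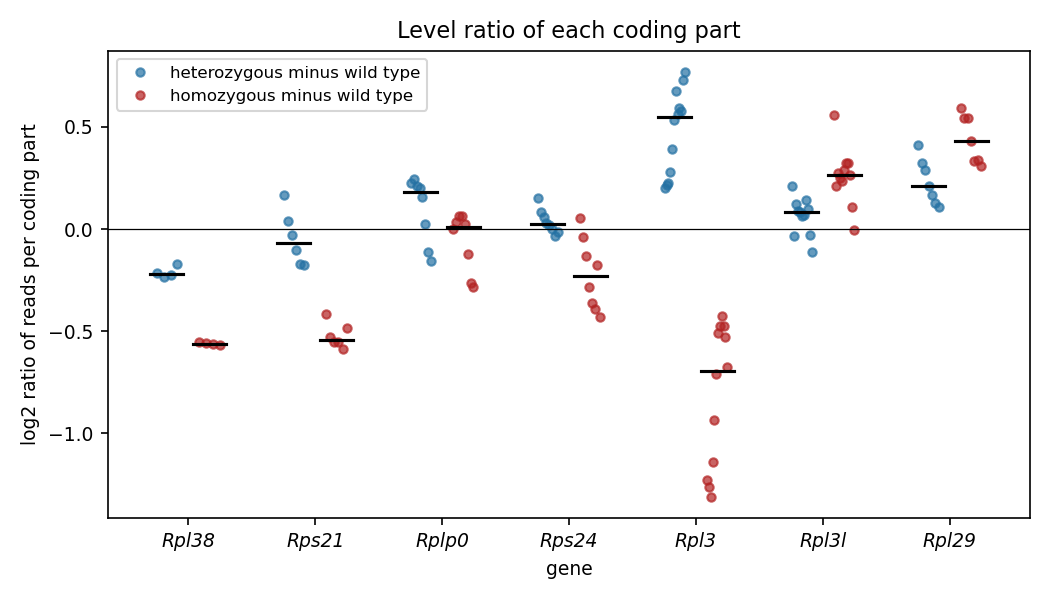
Log2 ratio of reads in each coding part (vertical axis; points) for 7 genes (horizontal axis), heterozygous minus wild type and homozygous minus wild type, with the median of each as a bar. All 12 parts of Rpl3 lie under 0 in homozygous muscle, from -1.31 to -0.43, and all 7 parts of Rpl29 lie above it, from 0.31 to 0.59.

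Rps4l against Rps4x, given above, varied between libraries about as much, and the pairs with Rps27, Rpl22 and Rpl7 varied less. Rps27l, a close relative of Rps27, stood at 1.61, 1.56 and 1.52 times Rps27 per base. Rpl22l1 stood at 1.05, 1.12 and 1.22 times Rpl22, and Rpl7l1 at 0.0559, 0.0617 and 0.0746 of Rpl7. Rpl39l reached 0.00582, 0.01 and 0.00532 of Rpl39, and Rpl10l had no read in wild type or heterozygous muscle and 0.00926 RPM in homozygous muscle. Over all 27 genes of merged groups, from their own parts, the median ratios to wild type were -0.13 in homozygous and 0.06 in heterozygous muscle, and between these 2 genotypes the median was -0.11. Past 1.5-fold between homozygous muscle and wild type were 3 of the 27, against 30.7% of all measured genes. They were Rpl3, Rps10 with 48.2, 43.8 and 31.5 RPM, and Rps12 with 237, 240 and 156 RPM. The Rps10 values come from only 15 of the 45 parts of its group, so they are not the level of the whole gene. Rplp2, the partner of Rplp1 in the stalk, had 480, 443 and 391 RPM there, and Rpsa, the laminin-binding protein of the small subunit, had 334, 352 and 330 RPM.

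Genes that build or serve ribosomes were also read from the table. Of 29 measured initiation factors, 0 were 2-fold apart in homozygous against wild type, where 12.1% of all measured genes were. Their median was 0.11. Of 8 elongation factors and partners, 0 were 2-fold apart, too few genes to set against that share, with a median of -0.10. Naca, a chaperone at the tunnel exit, had 154, 128 and 96.1 RPM. Of 39 ribosome assembly factors, 3 fell at least 2-fold, a share near the 10.1% of all measured genes at least 2-fold lower. None rose that far, where 2.05% of all measured genes did, and the median of the 39 was 0.15. The 3 were Heatr1 (log2 ratio -1.51), Noc2l (-1.15) and Ddx10 (-1.10). Of 8 nucleolar proteins, Dkc1, the pseudouridine synthase, rose from 12.9 RPM in wild type to 36.9 in homozygous muscle, with 15.7 in heterozygous. Dkc1 was the 1 of the 8 past 2-fold, where 2.05% of all measured genes were at least 2-fold higher, and 8 genes are too few to set against that share. Of 18 mTORC1 and TOP regulators, Rps6ka1 (12.5, 13.1 and 4.77 RPM) and Rptor (8.81, 7.76 and 3.42 RPM) fell, again a share near 10.1%, and the median was -0.14. Of 5 measured paralogs that the name rule leaves out, 0 were 2-fold apart, again too few to set against 12.1%. Their median was -0.10, and the 2 host genes of small nucleolar RNAs with a value had a median of -0.29.

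Several cell types differed between the same libraries. Macrophage markers summed to 427, 538 and 205 RPM, with 5 of 9 measured genes at least 2-fold lower in homozygous than in wild-type muscle, where 10.1% of all measured genes were. Another 2 of the 9 were slightly higher, Cd68 with 9.38, 20.2 and 10.9 RPM and Cd163 with 3.81, 7.02 and 4.21 RPM. Fat cell markers summed to 7628, 10330 and 3611 RPM (5 of 9), fibroblast markers to 1532, 1957 and 839 RPM (2 of 6) and Schwann cell markers to 124, 154 and 46.3 RPM (4 of 4). All 7 measured slow fibre markers were at least 2-fold lower. Erythroid markers summed to 7159, 8791 and 4494 RPM and endothelial markers to 158, 170.4 and 109.6 RPM, with 0 past 2-fold in either list. Neutrophil markers summed to 15.4, 117 and 93.4 RPM, with Ltf, Ly6g, Mmp8 and Ngp at 0 in wild type. Of the 7 measured neutrophil genes, 5 were higher and 2 lower in homozygous muscle than in wild type, the lower ones being Mmp9 with 6.51, 12.0 and 1.11 RPM and Retnlg with 5.67, 8.05 and 3.21 RPM. Tendon markers summed to 99.3, 199 and 122 RPM, and satellite cell markers to 1294, 1459 and 1534 RPM. Nearly all of the satellite cell sum was Des, which muscle fibres also express, at 1275, 1430.5 and 1511 RPM. Of the other measured satellite cell genes, Myod1 had 6.29, 18.03 and 12.01 RPM, and Cdh15 had 6.81, 8.46 and 5.76 RPM. Pax7, at 1.52, 0.358 and 0.371 RPM, stayed under 5 RPM in every library. B and T cell markers summed to 4.75, 7.73 and 6.69 RPM, with Cd3d at 0 throughout. The macrophage, fat cell, fibroblast, Schwann cell, erythroid and endothelial sums were highest in heterozygous and lowest in homozygous muscle. Not every gene followed its sum. Of 8 measured endothelial genes, 4 were higher and 4 lower in heterozygous than in wild-type muscle, and Tie1 had 16.1, 37.9 and 12.3 RPM. Of 5 measured erythroid genes, 4 were lower and 1 higher in homozygous than in wild-type muscle. The higher one was Alas2, with 8.27, 13.7 and 10.2 RPM. Of the 53 ribosomal protein genes, 28 were highest in heterozygous and 46 lowest in homozygous muscle, where 49.9% and 53.5% of all measured genes were, so the first count is near that of all genes, and the part of these cells in the ribosomal protein levels was not tested.

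Splicing of ribosomal protein genes was nearly constant. PSI, the percent spliced in, estimates the share of transcripts that include a part, from length-scaled inclusion and exclusion reads, and a part was called different at 20 points or more with at least 10 reads in both libraries. Between homozygous muscle and wild type, 1 of 827 measured parts was called, against 5.57% of all parts. Heterozygous muscle differed from wild type in 4 of 834, against 5.78%, and from homozygous muscle in 2 of 826, against 5.52%. Coverage is far deeper here than elsewhere, with a median of 4458, 5093 and 3585 reads per part against 94, 113 and 84 over all parts. Among parts with at least 1000 reads in both libraries, 0 of 648, 0 of 661 and 0 of 658 were called, against 0.879%, 0.875% and 1.08% of all such parts, with largest differences of 18.4, 19.0 and 12.9 points.

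The called parts rested on few reads or on 1 library. The part called in homozygous against wild type was a 38-base untranslated part of Rpl15 at chr14:18271030-18271067, with 11, 7 and 2 inclusion reads and 0, 0 and 13 exclusion reads, and PSI of 100%, 100% and 10.7%. An untranslated 37-base part of Rps24 at chr14:24490681-24490717 had PSI of 100%, 29.95% and 100%, with 217 exclusion reads in heterozygous muscle and 0 in both others. An untranslated 1923-base part of Rpl18 at chr7:45716148-45718070 had 100%, 29.7% and 100%, with 22 exclusion reads in heterozygous muscle only. The other 2 called in heterozygous muscle were neighbouring parts of Rps28, with 5 exclusion reads, at 59.3% and 68.4%. None was called when the exclusion reads of a part, per base, had to reach 5% of the 90th percentile of its gene's inclusion level.

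Most parts were at one end of the scale. Of 758 parts with at least 100 reads in every library, 470 had PSI of 95% or more in all 3, 236 had 5% or less in all 3, and 52 lay between. Of 338 coding parts, 303 were at 95% or more, 23 at 5% or less and 12 between. Of 159 parts found only in noncoding transcripts, which are largely retained introns and truncated forms, 149 were at 5% or less. Parts at 10% to 90% in every library numbered 15 in 11 genes, and 3 of the 15 were coding.

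Rps24 held the best covered alternative exon. It encodes a small-subunit protein and is known for small exons near its 3′ end that change the last residues. The 18-base exon at chr14:24494052-24494069 had PSI of 64.7% (95% interval 63.7 to 65.7), 62.6% (61.6 to 63.6) and 75.5% (74.4 to 76.6). The homozygous library stood 10.8 points above wild type (95% interval 9.34 to 12.3, counting error only) and 12.9 points above heterozygous muscle, while the other pair differed by -2.09 points. The next exon, 20 bases at chr14:24495430-24495449, had 88.2%, 89.2% and 94.0% over its first 3 bases. The 3 stretches below, all on the plus strand of GRCm38 from GENCODE M21 transcripts, show where the reading frame ends, with annotated stop codons in capitals; the third is the start of the last exon, at chr14:24495775-24495798.
Rps24 18-base exon: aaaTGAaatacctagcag
Rps24 20-base exon: TGAgtggagattggatacag
Rps24 last exon, first 24 bases: ccaaaggagTAGatctgcggtgac
With the 18-base exon the reading frame ends inside it after 1 codon, without it the frame ends at the first bases of the 20-base exon, and without both it ends in the last exon after 3 codons.

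The other parts with intermediate PSI lay mostly in untranslated sequence. A 45-base part of Rpl3l at chr17:24728174-24728218, an alternative first exon, had PSI of 27.4%, 8.49% and 9.03%, with 490, 155 and 171 inclusion reads and 964, 1244 and 1283 exclusion reads. It stood just inside the limit of 20 points, at -18.4 and -19.0 against wild type in homozygous and heterozygous muscle. The last exon of Rpl27 at chr11:101445439-101445529, with 91 bases, had 84.7%, 76.7% and 72.0%, a difference of -12.7 points (-14.3 to -11.1) in homozygous against wild type, and where its excluding reads joined is not given in the table. An untranslated part of Rpl38, the single base chr11:114668626-114668626, had 26.4%, 29.6% and 33.9%, with 3160, 2998 and 1833 exclusion reads.
A 37-base alternative part of Rps19 at chr7:24884813-24884849 had 11.3%, 17.0% and 11.1%, highest in the library where the gene's level was highest. A 4-base part of Rps28 had 77.6%, 73.6% and 73.7%, and an untranslated part of Rps27a had 19.3%, 20.6% and 23.6%.

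**Figure D5:**
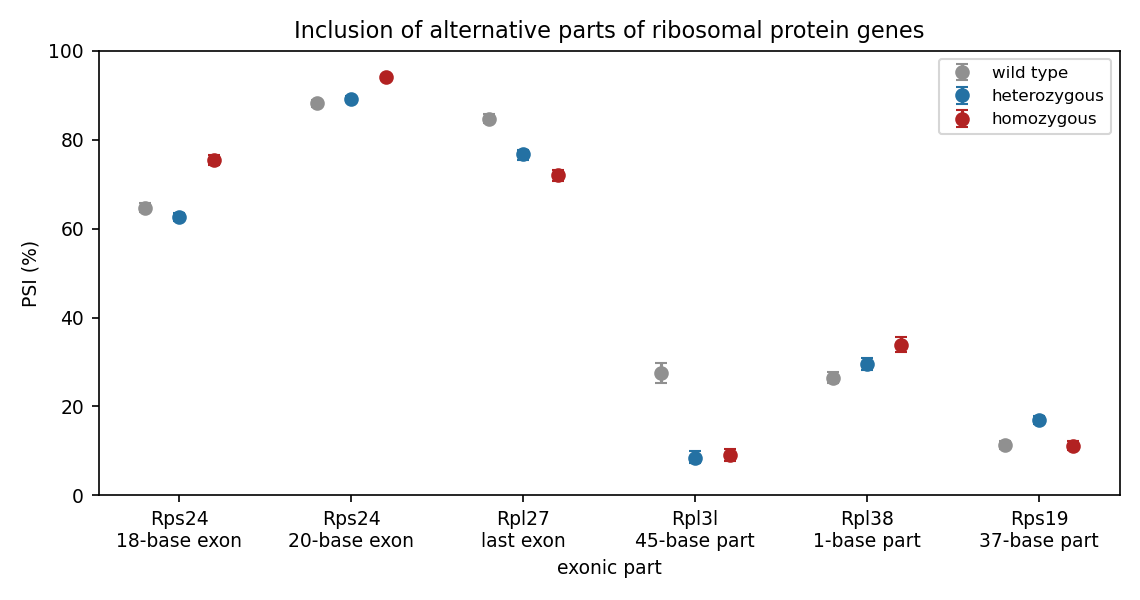
PSI in percent (vertical axis) of 6 exonic parts (horizontal axis) of ribosomal protein genes in the 3 libraries, with 95% intervals for counting error. Homozygous muscle is highest for the 18-base exon of Rps24 at 75.5%, lowest for the last exon of Rpl27 at 72.0%, and near heterozygous muscle for the 45-base part of Rpl3l at 9.03% and 8.49%.

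A few constitutive coding parts dipped in 1 library. A 37-base part of Rps9 had 100%, 100% and 90.4%, with 294 exclusion reads in homozygous muscle and 0 in the others. A 211-base part of Rps6, the substrate of S6 kinase, had 95.9%, 100% and 100%, with 222 exclusion reads in wild type alone. A 9-base part of Rpl18 had 95.4%, 100% and 100%, with 110 exclusion reads in wild type alone. Parts of minor forms had low values throughout, at 7.28%, 4.15% and 11.7% in Rpl22 and at 6.94%, 5.05% and 1.33% in Rpl10a.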

How the data were processed

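RNA of skeletal muscle from 12-week-old mice was sequenced in 3 libraries, with SMART-seq v4 and Nextera XT kits on a NovaSeq instrument, per the labels' protocols. Per the file headers, the deposited table gives each exonic part raw inclusion and exclusion read counts, the length of the part in bases, a PSI fraction and its difference from wild type. Here PSI is in percent, and differences are in points with the genotype named first as the minuend. The build was GRCm38, and Bowtie 1.1.1, TopHat2 2.0.14, Trimmomatic 0.32 and cutadapt 1.1 are named with no roles, per the submitters' processing notes. How parts were counted, and on which annotation release, was not given in sources used here. The deposited PSI fraction was found, within 5e-07, to be inclusion counts over length plus 131, divided by that plus exclusion counts over 131.

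Levels are RPM from inclusion counts, where a read can count in several parts. Log2 ratios are on RPM plus 1, which understates the change of low genes, for genes at 5 or more RPM in a library. Levels of different genes are compared per base, as the 90th percentile over parts of counts per length plus 131. PSI intervals are Wilson's and differences Newcombe's, and Poisson intervals are exact; all are 95%, and with no molecular identifiers they cover counting error alone. Ratios per coding part use parts with at least 100 reads. No test compares genotypes. Annotation is GENCODE M21 and start sites are RefSeq's, both on GRCm38.

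Members and gene lists (translation, ribosome assembly, muscle fibres and other cell types) were chosen with earlier results of these data known. Named genes are Rplp0, Rplp1, Rplp2, Rpsa, Rpl3, Rpl3l, Rps24 and Rps27a, the 5 highest and 5 lowest ratios against wild type, the 5 highest and 3 lowest per base in wild type, and the parts ranked first by the Newcombe bound nearest 0, 10 genes in homozygous and 5 in heterozygous against wild type. Members of lists other than these were named where they passed 2-fold or, for Naca, Rps10, Rps12, Rpl15, the cell markers and the other parts at intermediate PSI, after their values were seen. Alternatives were other pseudocounts, minimum levels, scalings, read summaries, folds, PSI differences and read minimums, and a supported junction. The computation was tested on simulated data. It used matplotlib 3.10.9, scipy 1.17.1, pandas 2.3.3, numpy 2.4.6 and Python 3.11.15.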

Additional observations from a re-analysis of the deposited data

How the results depend on the processing

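No paired analysis was possible because each genotype has 1 library, and for the same reason no library could be left out. Over all settings, 93 values stayed within the limit set for them and 32 moved. Some of the 93 could not move. The 1.5-fold setting does not enter the medians or the counts of lower members, and a pseudocount cannot change the sign of a ratio. The limit was 1.5 times for counts, and 0.1 on the log2 scale for medians and the subunit ratio, whatever the sign. By this rule the median in heterozygous against wild type was kept without the 50 highest genes, although it went from 0.02 to -0.067. The number of members 2-fold apart in homozygous against wild type (main 1) was 0 at a minimum of 20 RPM and 0 without Rps4l and Rpl6l, a setting added after seeing the data. In heterozygous against wild type (main 0) it was 1 without the 50 highest genes in the total and 1 at 1.5-fold. In homozygous against heterozygous (main 0) it was 1 with a pseudocount of 0.1 RPM, 1 at 1.5-fold and 1 with the genes of merged groups, also added later. With the median of all genes set to 0, the median log2 ratio of the members to wild type was -0.059 in homozygous and -0.082 in heterozygous muscle, and it was 0.058 between these genotypes. Without the 50 highest genes it was -0.12 between homozygous muscle and wild type and -0.0091 between homozygous and heterozygous muscle. Members lower in heterozygous against wild type then numbered 37 with the median at 0 and 35 without the 50 highest genes, against 23; in homozygous against heterozygous they numbered 22 and 28, against 49.

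Called parts in the 3 pairs (main 1, 4 and 2) numbered 6, 11 and 7 at 10 points, 0, 0 and 0 with a supported junction, and 0, 0 and 0 at 1000 reads, the last added later. In the first and second pairs they numbered 0 and 2 at 20 reads and 0 and 1 at 100 reads. Without a minimum they numbered 2 in the first pair and 5 in the last. The ratio of large to small subunit level was 0.956 over all parts, added later, against 0.864. The cause of these shifts was not tested, apart from the smaller sets of genes or parts that stricter minimums leave.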

Other observations

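Rps4l and Rpl6l, the measured copies annotated as pseudogenes, were lowest in homozygous muscle like most of the functional genes. Rpl6l had 6.18, 5.08 and 4.20 RPM, in the order wild type, heterozygous, homozygous, a log2 ratio of -0.47 in homozygous against wild type, and it did not reach 1.5-fold. Rps14, the highest of the members in summed reads, had 953, 965 and 756 RPM, and Rpl41, whose coding sequence of 138 bases is the shortest here, had 704, 768 and 522 RPM. Rpl36a, on the X chromosome, had 113, 107 and 82.7 RPM, the lowest level in homozygous muscle of any measured protein-coding member by summed reads. These genes were chosen after their values were seen.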
